A study of Homo sapiens with 56 samples.

Results

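The 58 genes described here encode the machinery that copies DNA and the S-phase programme around it. They were chosen by gene symbol, and all 58 were present among the 21595 named genes of the expression table. By role they fall into 9 groups: origin recognition and licensing (11 genes), helicase activation (8), the sliding clamp and its loader (6), polymerases and primase (9), lagging strand processing and single-strand binding (5), nucleotide supply (5), E2F factors and cyclin E (5), chromatin assembly and DNA methylation (6), and fork protection with licensing turnover (3). The polyadenylated RNA came from 4 mantle cell lymphoma lines, in 56 libraries. Mantle cell lymphoma is a B-cell malignancy that typically overexpresses cyclin D1, and the series concerns drug resistance in it and the targets BIRC5 and MCL-1.

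After 8 pairs of near-identical libraries had been averaged, 48 samples remained. MINO-P had 15 libraries (13 samples), MINO-VR 13 (11), JEKO-1 15 (11) and Z138 13 (13); P and VR are not explained in the labels. The treatment labels are CON (5 libraries, 5 samples), CLF (6, 6), BTZ (6, 5), IBR (11, 8), YM155 (4, 4), S63845 (6, 6), BTZ_CLF (4, 3), BTZ_YM155 (2, 2), BTZ_S63845 (1, 1), IBR_CLF (8, 5), IBR_YM155 (2, 2) and IBR_S63845 (1, 1). CON is taken here as the untreated cells that the design text mentions. YM155 suppresses expression of BIRC5 (survivin) and S63845 inhibits MCL-1; the design text combines both with a PI and a BTKi, but no label spells out CLF, BTZ or IBR. Doses and times are not given in the labels, and neither is whether libraries of one label came from separate cultures, so the p-values measure the spread between these samples, which may be technical.

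Before S phase, the origin recognition complex, CDC6 and CDT1 load the MCM helicase onto origins, and geminin (GMNN) blocks CDT1 once replication has begun. The kinase CDC7 with its subunit DBF4, together with CDC45, the GINS complex and MCM10, turns the loaded MCM rings into active helicases, after which primase and the polymerases copy both strands on the PCNA clamp. Transcription of many of these genes rises at the G1 to S transition, when the retinoblastoma protein releases E2F factors, a step that cyclin D1 and cyclin E kinases drive.

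Promoters are shown for 4 genes, each the gene with the largest drop in its role under BTZ, because their letters show how far the E2F motif is shared. RefSeq promoters (GRCh38.p14) matched 50 of the 58 genes. Each line below runs 5′ to 3′ on the gene's strand from 250 bases before the start site to 30 after it; capitals mark an E2F motif or CCAAT, each searched on both strands. Any of 4 spellings counted as an E2F motif: TTGGCGC was the first, and its variants TTCGCGC and, with other middle letters, TTCCCGC and, as the last spelling searched, TTGCCGC were counted as well. TK1 lies at chr17:78187175-78187454 (minus strand), LIG1 at chr19:48170315-48170594 (minus strand), UHRF1 at chr19:4909251-4909530 (plus strand) and MCM7 at chr7:100101368-100101647 (minus strand).
TK1: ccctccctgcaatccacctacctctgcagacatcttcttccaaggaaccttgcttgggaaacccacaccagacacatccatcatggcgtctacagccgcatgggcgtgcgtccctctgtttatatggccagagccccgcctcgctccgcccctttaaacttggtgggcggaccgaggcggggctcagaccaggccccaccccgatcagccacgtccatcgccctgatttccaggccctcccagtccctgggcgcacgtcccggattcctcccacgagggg
LIG1: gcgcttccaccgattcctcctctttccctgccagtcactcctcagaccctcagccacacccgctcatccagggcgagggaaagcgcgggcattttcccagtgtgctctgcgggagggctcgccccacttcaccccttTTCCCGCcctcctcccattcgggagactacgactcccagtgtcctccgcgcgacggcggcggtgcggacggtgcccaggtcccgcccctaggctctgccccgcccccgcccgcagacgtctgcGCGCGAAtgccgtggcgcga
UHRF1: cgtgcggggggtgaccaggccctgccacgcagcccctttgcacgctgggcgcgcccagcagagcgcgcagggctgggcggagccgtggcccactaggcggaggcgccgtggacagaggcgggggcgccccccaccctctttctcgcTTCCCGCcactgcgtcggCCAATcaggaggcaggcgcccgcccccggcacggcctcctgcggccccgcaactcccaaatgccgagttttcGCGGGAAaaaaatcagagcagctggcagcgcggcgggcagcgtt
MCM7: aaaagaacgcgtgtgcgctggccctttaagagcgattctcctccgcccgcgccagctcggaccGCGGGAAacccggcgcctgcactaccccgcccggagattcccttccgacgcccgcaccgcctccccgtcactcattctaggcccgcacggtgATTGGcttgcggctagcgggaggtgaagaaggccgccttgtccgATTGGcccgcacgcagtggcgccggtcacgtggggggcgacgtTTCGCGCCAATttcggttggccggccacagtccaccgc
Relative to the first transcribed base, the E2F matches began at -113 and 10 in LIG1, at -104 and -14 in UHRF1, and at -187, -8 and -5 in MCM7, where the last pair overlap each other and a CCAAT match. TK1 showed neither motif in this window.

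In windows of 300 bases, reaching 50 bases past the start, an E2F motif was found in 34 of the 50 member promoters (68%), in 19.7% of 12342 promoters of genes tested here and in 13.1% of all 27305 promoters. Members held 56 such matches, 39 of them within 50 bases of the start site. CCAAT was found in 27 member promoters (54%), 36.6% of the promoters of tested genes and 35.7% of all promoters. The third motif searched, TTTGAA, was found in 3 (6%), 10.2% and 15.4% of the same sets. For a list of 52 other replication genes, 43 promoters matched. An E2F motif was found in 15 of these 43 (34.9%), CCAAT in 24 (55.8%) and TTTGAA in 2 (4.65%). For a list of 30 mitosis genes, 25 promoters matched. CCAAT was found in 20 of them (80%), TTTGAA in 18 (72%) and an E2F motif in 6 (24%). A match describes these letters and not a bound site.

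All levels below are in CPM, read counts scaled by the library total, over nuclear genes and rescaled after the mitochondrially encoded genes had been left out, and fold changes are differences on log2(CPM + 1), which understates those of weakly expressed genes. Estimated depth was 5.525 M reads in the shallowest library, 16.03 M in the median one and 21.62 M in the deepest. Mitochondrial genes took 1.91 to 80.5% of a library: 1.91 to 3.92% in CON, but over 50% in 6 JEKO-1 libraries (BTZ replicates 1 and 2, and both replicates of BTZ_CLF and IBR_CLF). JEKO-1 BTZ replicate 3 also stands apart. Over genes with a mean of at least 10 CPM, its log2 ratio to the median of the other libraries had a Spearman rho of -0.67 with transcript GC content, against -0.31 to 0.32 in the other 55 libraries, and an SD of 2.16 against 0.648 to 1.16. The labelled cell type was visible in every library: the B-cell gene MS4A1 stood at 206 to 2040 CPM and CCND1 at 207 to 3250 CPM. Summed T-cell markers were 0 to 42.3 CPM and summed myeloid markers 0 to 28.8 CPM, with CD3D, CD3E and CD2 at a median of 0. Summed epithelial, stromal and endothelial markers were 7.89 to 81.3 CPM (median 26.1): EPCAM (median 5.61 CPM), COL1A1 (6.61) and PECAM1 (3.96) were detected, whereas KRT19 and COL3A1 had a median of 0. That sum was 31.1 to 81.3 CPM in CON, 17.8 to 72.4 in BTZ, 7.89 to 55.5 in IBR, 18.2 to 68.2 in S63845 and 11.6 to 60.9 in YM155, and its part in the results was not tested. In bulk RNA, fewer cells in S phase and less RNA of these genes per cell cannot be told apart.

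**Figure D1:**
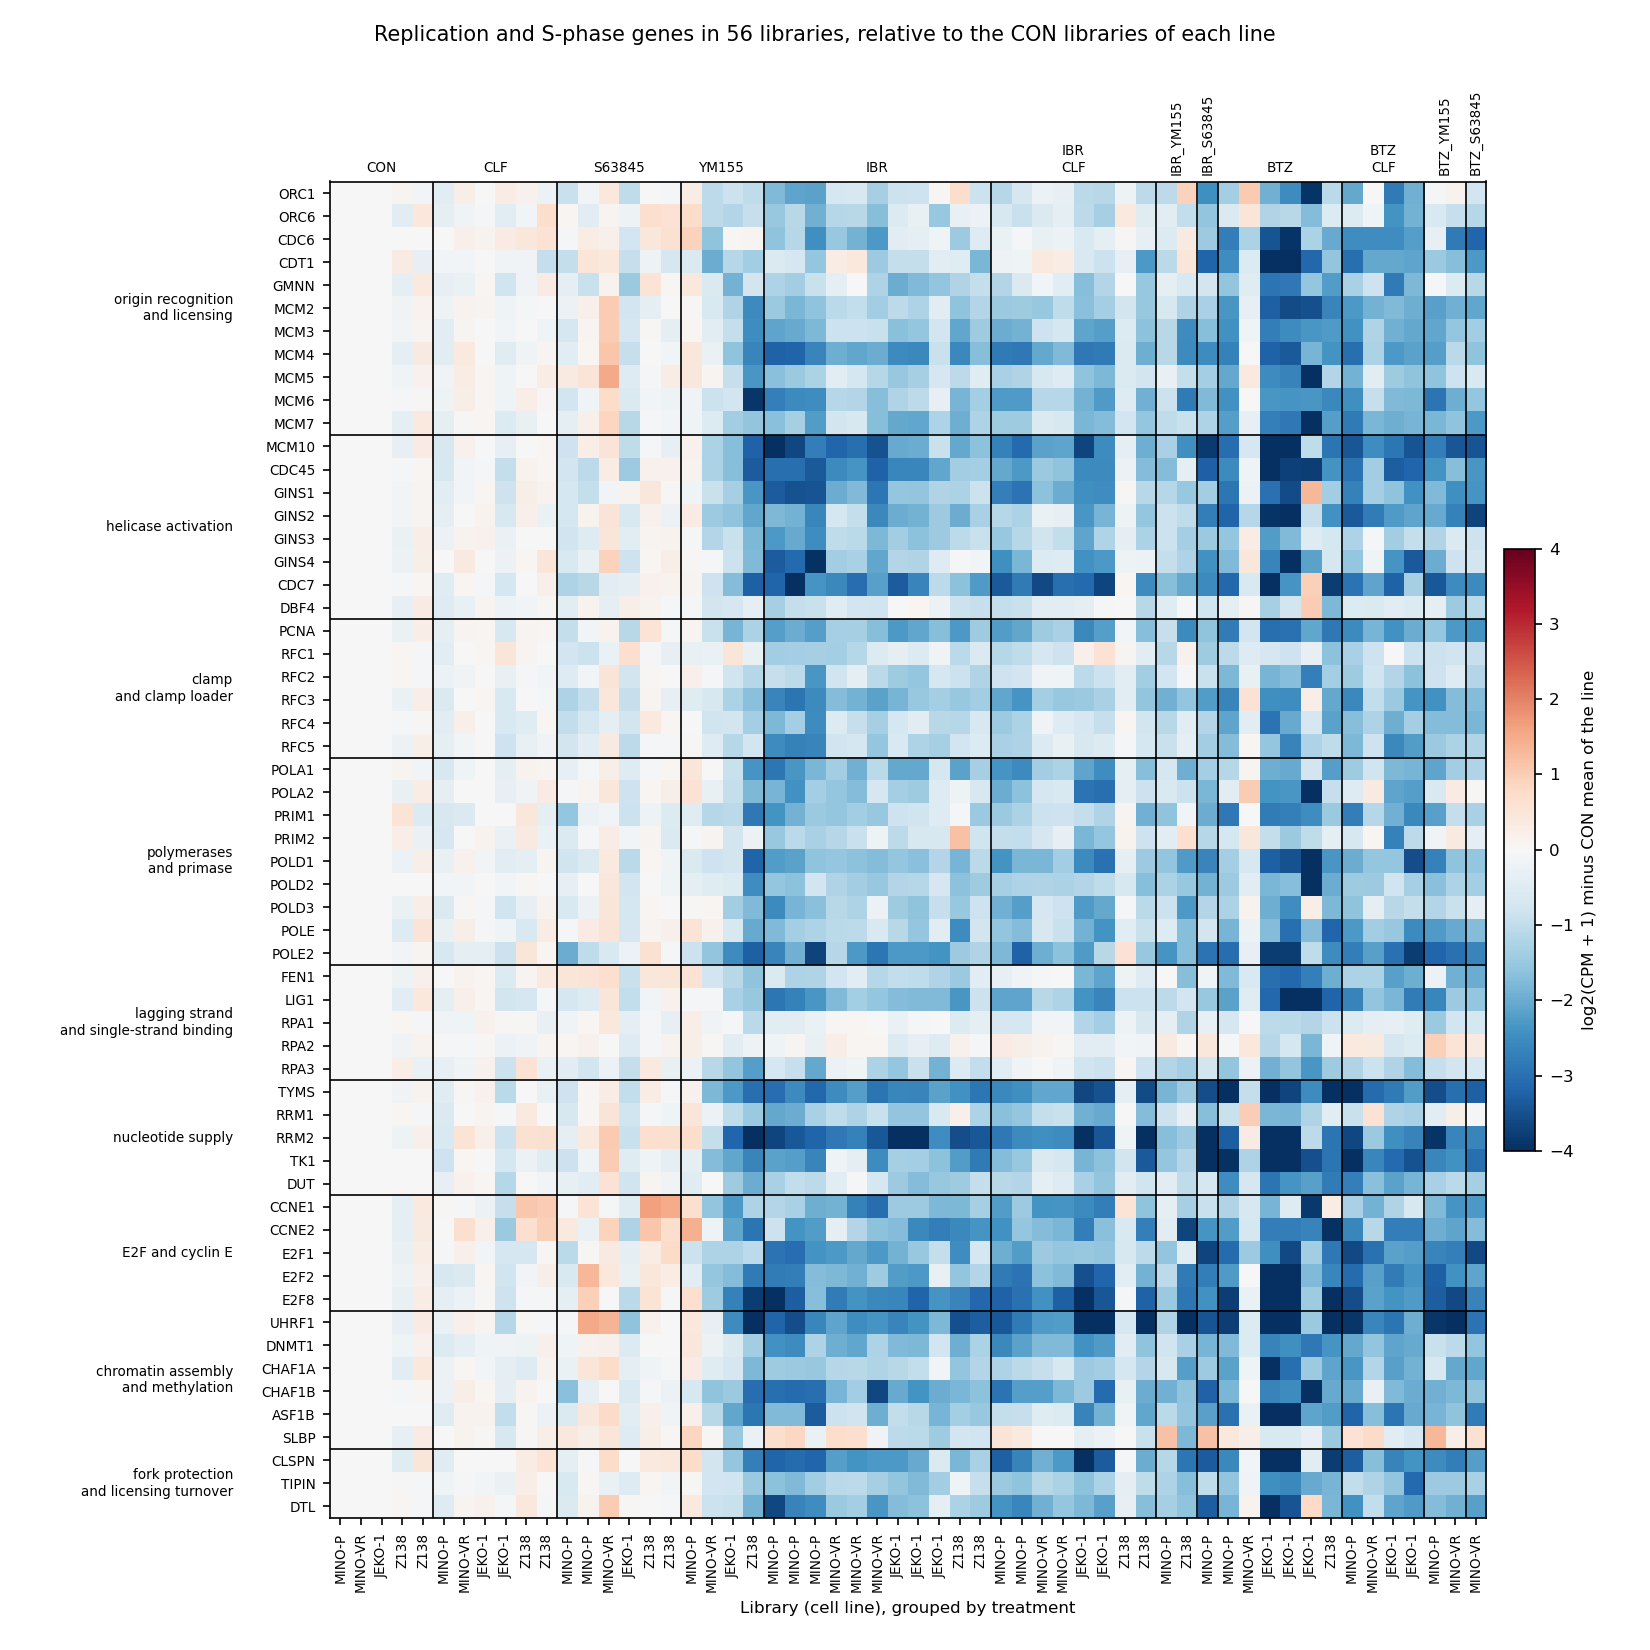
Each row is 1 of the 58 genes, grouped by role, and each column 1 of the 56 libraries, grouped by treatment label. Colour gives log2(CPM + 1) minus the CON mean of the same line. The BTZ and IBR blocks are mostly blue, RPA2 and SLBP are pale in most libraries, and the single MINO-VR BTZ library is pale beside the other BTZ libraries.

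Most of the replication genes were lower in BTZ libraries than in CON libraries. In a limma fit with terms for treatment, line and library series, 45 of the 58 genes were lower and 0 higher at an adjusted p under 0.05. For comparison, 12.6% of the 16755 genes tested were lower. The members' median change was -1.96 on the log2 scale, the median of all genes was -0.19, and all 58 estimates were negative, from -3.43 (TK1) to -0.30 (SLBP). Without the 3 JEKO-1 BTZ libraries, 40 members were lower with a median of -1.55, and 15.8% of genes were called in either direction, against 16.7% with those libraries. The member count was 49 without JEKO-1 BTZ replicate 3 alone and 39 without replicates 1 and 2, whose mitochondrial share is over 50%; the part of either feature in the result was not tested. Shares of all genes called without replicate 3, or without replicates 1 and 2, are not given.

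In nucleotide supply 4 of 5 genes were lower, with a role median of -2.36. TK1, thymidine kinase of the salvage pathway, stood in CON at 83.8 CPM in MINO-P, 29.4 in MINO-VR, 201 in JEKO-1 and 126 and 129 in Z138. In BTZ libraries TK1 stood at 4.51 CPM in MINO-P, 11.9 in MINO-VR, 3.0, 3.90 and 16.6 in the 3 JEKO-1 libraries and 16 in Z138. No BTZ library reached the lowest CON library, and the fitted change was -3.43 (SE 0.48, adjusted p = 1.89e-05). TYMS, the thymidylate synthase that makes dTMP, stood in CON at 255 CPM in MINO-P, 124 in MINO-VR, 508 in JEKO-1 and 287 and 356 in Z138. Under BTZ, TYMS stood at 14.8 CPM in MINO-P, 63.1 in MINO-VR, 25.7, 38.9 and 88.0 in JEKO-1 and 18.9 in Z138, again without overlap; the fitted change was -3.06 (SE 0.51, adjusted p = 0.000103). The other called genes of this role were DUT, the dUTPase (-2.10, SE 0.26, adjusted p = 7.82e-06), and RRM2, the regulated subunit of ribonucleotide reductase.

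RRM2 was less uniform. In CON it stood at 207 CPM in MINO-P, 61.9 in MINO-VR, 438 in JEKO-1 and 182 and 240 in Z138. Under BTZ it stood at 20.2 CPM in MINO-P and 26.8 in Z138, but at 77.3 in MINO-VR, above the CON library of that line, and at 11.1, 6.13 and 213 in the JEKO-1 libraries. The groups overlap through MINO-VR and JEKO-1 replicate 3, and the fitted change was -2.36 (SE 0.70, adjusted p = 0.0161). RRM1, the partner subunit, did not pass the test (-0.56, adjusted p = 0.322).

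**Figure D2:**
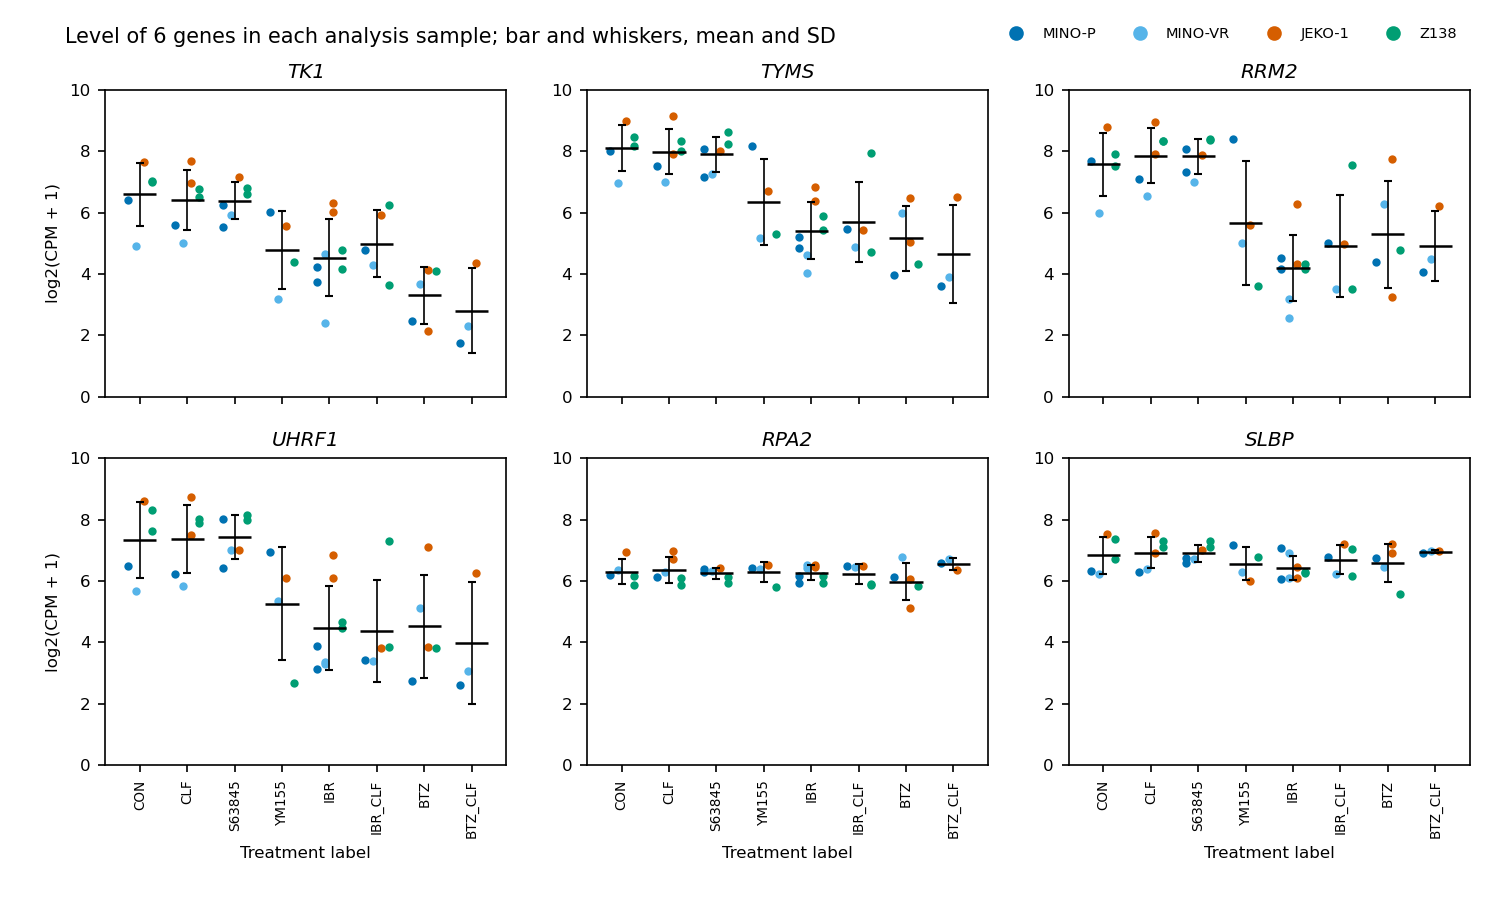
Levels of TK1, TYMS, RRM2, UHRF1, RPA2 and SLBP on log2(CPM + 1), each point 1 of the analysis samples under 8 treatment labels, coloured by line, with the mean (bar) and SD (whiskers) over samples. TK1 and TYMS in BTZ lie below all CON samples, RRM2 and UHRF1 spread widely under BTZ, and for RPA2 and SLBP the points of all labels lie in narrow, overlapping ranges.

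In origin recognition and licensing 10 of 11 genes were lower, with a role median of -2.0; ORC6 was the exception (-0.57, adjusted p = 0.278). MCM2, a subunit of the helicase ring, stood in CON at 185 CPM in MINO-P, 114 in MINO-VR, 474 in JEKO-1 and 288 and 347 in Z138. The BTZ libraries had MCM2 at 35.7, 90.6, 48.9, 38.7, 40.3 and 49.7 CPM in MINO-P, MINO-VR, the 3 of JEKO-1 and Z138. All 6 lie below every CON library, the MINO-VR one by the least (-2.45, SE 0.37, adjusted p = 3.22e-05). MCM7, of the same ring, had 599, 297, 1340, 639 and 1120 CPM in CON and 128, 237, 200, 182, 23.3 and 183 CPM under BTZ in the same order of libraries (-2.57, SE 0.44, adjusted p = 0.000147). Its lowest value, 23.3 CPM, is that of JEKO-1 replicate 3.

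The loader CDC6 stood at 59.3 to 123 CPM in CON and at 7.95, 25.9, 7.29, 5.01, 36.2 and 29.3 CPM under BTZ, with no overlap (-2.16, SE 0.42, adjusted p = 0.000486). CDT1 stood at 95.7 CPM in MINO-P, 42.1 in MINO-VR, 208 in JEKO-1 and 327 and 208 in Z138 without treatment, against 16.2, 28.2, 5.14, 7.80, 22.5 and 87.3 CPM under BTZ (-2.49, SE 0.49, adjusted p = 0.000553). Every BTZ library was below the CON libraries of its own line, although the Z138 BTZ value exceeds the MINO-VR CON value. GMNN, the CDT1 inhibitor, fell from 22.3 to 100 CPM in CON to 7.98 to 33.8 CPM, and the highest BTZ value is that of JEKO-1 replicate 3 (-1.61, SE 0.34, adjusted p = 0.00111).

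Helicase activation was the role with the fewest calls for its size, 4 of 8 (median -1.64). CDC45 stood at 42.5, 22.4, 117, 36.0 and 40.5 CPM in CON and at 6.51, 19.6, 1.71, 7.80, 7.60 and 6.49 CPM under BTZ, without overlap (-2.48, SE 0.50, adjusted p = 0.000725). GINS2 fell to between 3.76 and 12.4 CPM in 5 BTZ libraries from 24.6 to 203 CPM in CON, while JEKO-1 replicate 3 had 106 CPM (-2.34, SE 0.45, adjusted p = 0.000438). MCM10 (-2.43) and the kinase CDC7 (-1.96) were the other called genes. The remaining GINS subunits and DBF4 were not called, GINS1 with -1.24 (adjusted p = 0.124) and DBF4 with -0.49 (adjusted p = 0.278); in JEKO-1 replicate 3 GINS1 stood at 283 CPM against 111 CPM in the CON library of that line.

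At the fork itself, all 6 clamp and loader genes were lower (median -1.39). PCNA, the clamp, stood at 389, 245, 577, 258 and 376 CPM in CON and at 54.9, 143, 71.1, 71.5, 135 and 42.2 CPM under BTZ (-2.22, SE 0.37, adjusted p = 0.000107), and the loader subunits RFC1 to RFC5 changed by -1.55 to -0.96. Among polymerases and primase 6 of 9 were lower (median -1.87): PRIM1, the catalytic primase subunit, went from 30.4 to 98.6 CPM in CON to 5.76 to 30.2 CPM (-1.90, adjusted p = 0.00277). POLE2, a subunit of the leading-strand polymerase, stood at 6.84 to 12.8 CPM in CON and at 0.564, 5.28, 0, 0, 5.83 and 0.665 CPM under BTZ (-2.02, adjusted p = 0.00451). POLA2, PRIM2 and POLD3 were not called.

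Lagging strand genes split. LIG1, the ligase that joins Okazaki fragments, stood at 75.3, 25.4, 64.2, 84.3 and 154 CPM in CON and at 16.3, 18.0, 6.43, 2.23, 0 and 11.6 CPM under BTZ, the 0 again in JEKO-1 replicate 3 (-2.97, SE 0.45, adjusted p = 3.89e-05). The nuclease FEN1 (-1.92) was lower too. Of the single-strand binding trimer RPA, RPA3 fell (-1.36, SE 0.32, adjusted p = 0.00279), from 32.9 to 63.2 CPM in CON to 11.8 to 33.0 CPM, RPA1 fell by 0.76, and RPA2 was not called (-0.42, adjusted p = 0.155). RPA2 stood at 72.7, 80.1, 123, 56.8 and 70.3 CPM in CON and at 69.0, 108, 55.3, 75.2, 33.6 and 56.1 CPM under BTZ, so the groups overlap almost fully.

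Among the regulators, 4 of 5 E2F and cyclin E genes were lower (median -2.33). E2F1, an activating E2F, stood at 132, 87.7, 194, 102 and 157 CPM in CON and at 14.8, 31.2, 34.7, 15.0, 73.4 and 16.7 CPM under BTZ, without overlap (-2.33, SE 0.34, adjusted p = 2.45e-05). E2F8, a repressive E2F expressed in S phase, stood at 13.3 to 52.7 CPM in CON and at 0.689, 11, 0, 1.11, 15.1 and 0 CPM under BTZ (-3.12, SE 0.71, adjusted p = 0.00219). CCNE1, cyclin E1, was the member not called: it stood at 1.69 to 21.2 CPM in CON and 0.517 to 14.5 CPM under BTZ (-1.04, adjusted p = 0.154).

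Chromatin genes had 5 of 6 lower (median -2.07). UHRF1, which directs DNMT1 to hemimethylated DNA, stood at 89.1, 49.4, 391, 198 and 316 CPM in CON and at 5.61 CPM in MINO-P, 33.7 in MINO-VR, 11.3 and 15.5 in JEKO-1 replicates 1 and 2 and 13.1 in Z138 under BTZ, while JEKO-1 replicate 3 exceeded the MINO-P CON library (-2.96, SE 0.71, adjusted p = 0.0035). DNMT1, the maintenance methyltransferase, went from 245 to 492 CPM to 66.7 to 187 CPM (-1.98, SE 0.34, adjusted p = 0.000147). SLBP, the histone mRNA stem-loop binding protein, did not pass the test (-0.30, adjusted p = 0.575): it stood at 79.0, 73.7, 183, 105 and 165 CPM in CON and at 106, 87.5, 120, 120, 145 and 46.6 CPM under BTZ. In the last role CLSPN (claspin, a checkpoint adaptor at forks) fell by 2.35 (adjusted p = 0.0116) and TIPIN by 1.53 (adjusted p = 0.000582). CLSPN went from 35.9 to 83.0 CPM in CON to 10.6, 33.5, 2.14, 0, 48.7 and 3.32 CPM. DTL, the receptor of the ubiquitin ligase that removes CDT1, was not called (-1.36, adjusted p = 0.0722), with 19.1, 43.2, 3.86, 11.7, 238 and 49.5 CPM under BTZ against 39.2 to 192 CPM in CON.

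**Figure D3:**
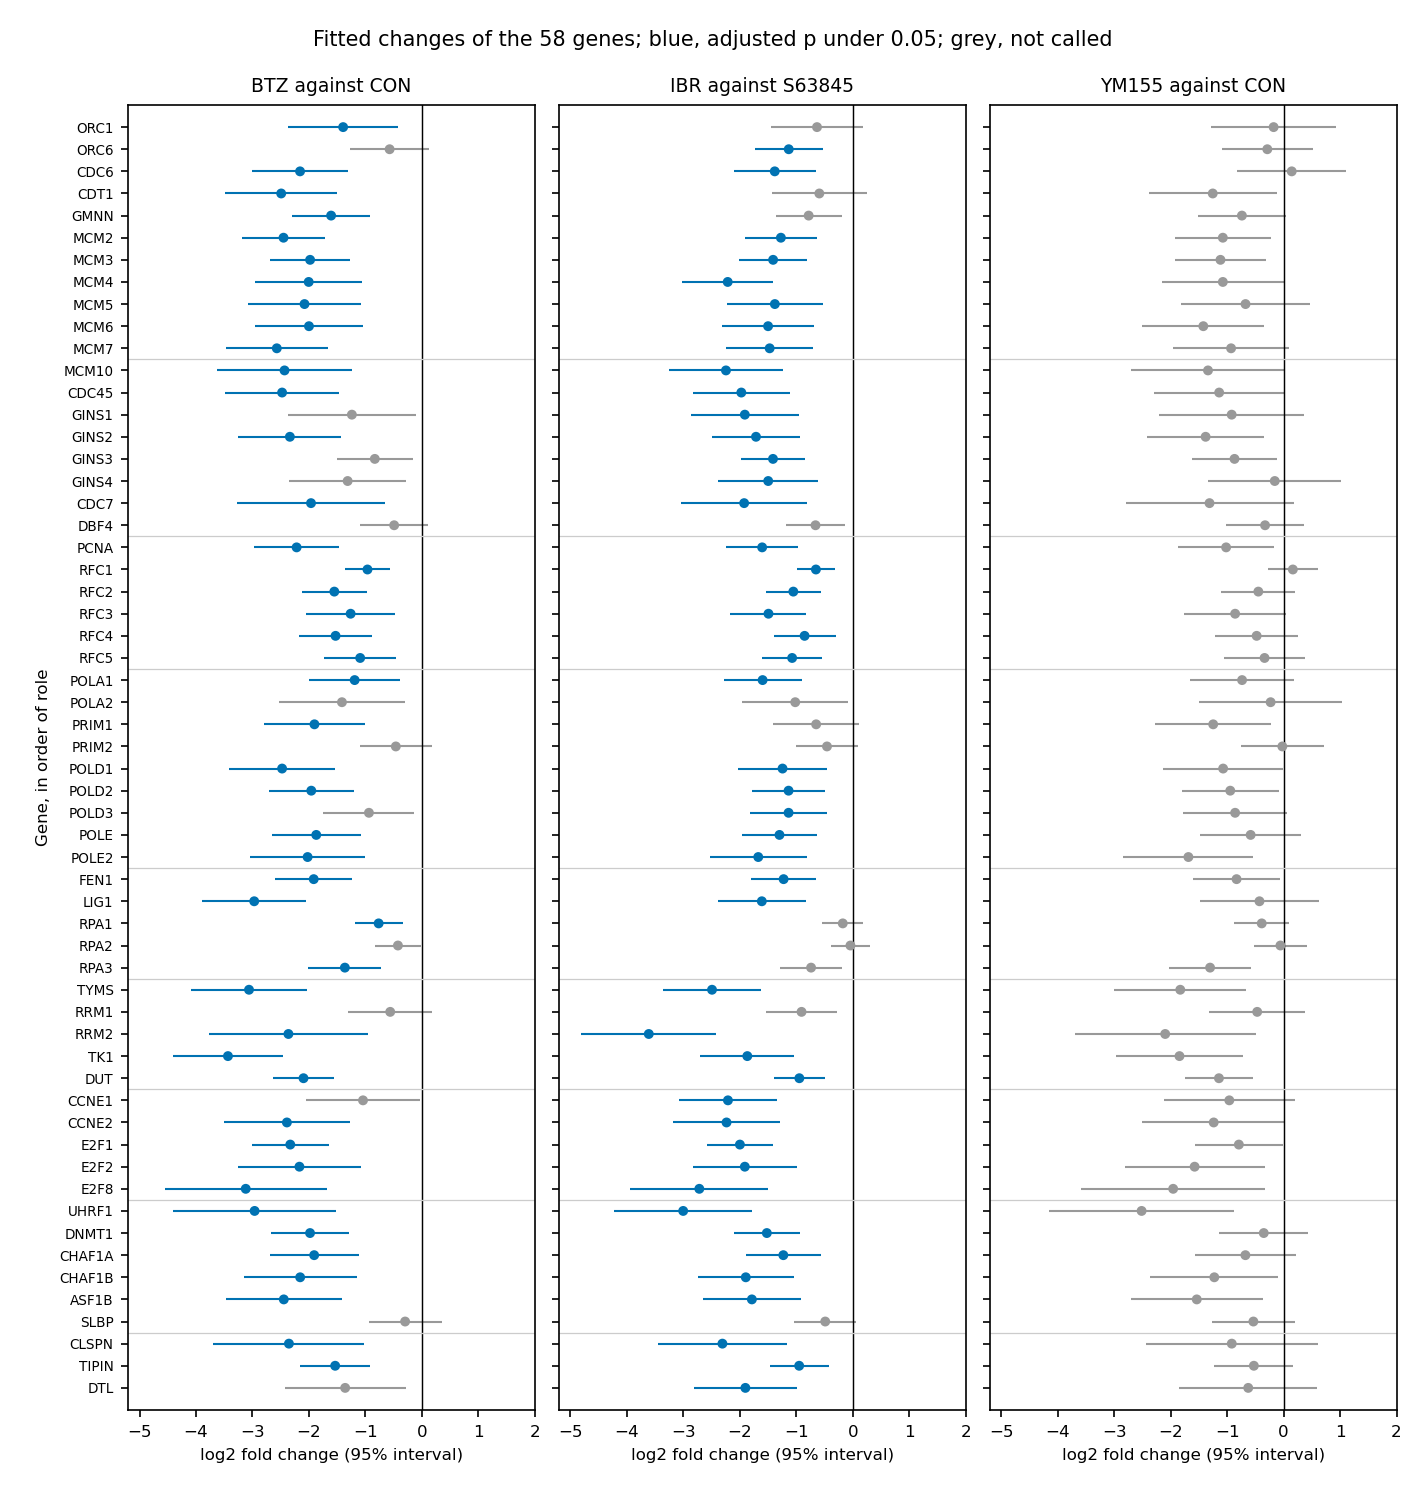
Fitted log2 fold changes (points) with 95% intervals (lines) of the 58 genes in 3 comparisons, genes in order of role; blue marks an adjusted p under 0.05. Most BTZ and IBR intervals lie left of 0, and the YM155 panel has wide intervals and no called gene.

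The lines did not look alike under BTZ, but a test of that difference made no call. The median difference of the 58 genes from the CON mean of the line was -2.11 in MINO-P, -0.23 in MINO-VR, -2.77, -2.76 and -1.80 in the JEKO-1 libraries and -2.12 in Z138. At least 2-fold lower were 50 genes in MINO-P (16.2% of all genes), 4 in MINO-VR (10.6%), 55, 53 and 45 in JEKO-1 (17.9, 17.5 and 33% of all genes) and 49 in Z138 (21.8%). In MINO-VR, TK1 (-1.24) and E2F1 (-1.46) stood lower than in CON, whereas ORC1 (1.06) and POLA2 (1.03) stood higher; for ORC1 the other lines had -1.36 in MINO-P, -3.06 in JEKO-1 and -1.09 in Z138.

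Fitted within lines, where only groups with more than 1 sample inform the spread, BTZ gave 0 called members in MINO-P (36 at an unadjusted p under 0.05, against 7.9% of genes; 0.119% of genes called) and 0 in MINO-VR (0 unadjusted, against 4%; 0.125% called). In JEKO-1, 9 were lower (0.406% of genes lower). The 4 with the largest drops were LIG1 (-4.82, adjusted p = 0.0135), MCM7 (-4.29, adjusted p = 0.0377), POLD1 (-4.23, adjusted p = 0.00859) and CDC45 (-4.06, adjusted p = 0.00905). More members were called without replicate 3 or without replicates 1 and 2, but these fits leave 1 BTZ sample. Shares of all genes are not given for them. Replicate 3 differed from replicates 1 and 2 with an SD of 2.11 and 2.12 on log2, against 0.544 to 0.977 between Z138 replicates. That difference enters the spread used in every line, and its part in the calls was not tested. In Z138, 10 were lower (1.31% of genes lower), led by E2F8 (-5.46, adjusted p = 0.0439), TYMS (-4.01, adjusted p = 0.042), CCNE2 (-3.95, adjusted p = 0.0274) and POLE (-3.17, adjusted p = 0.0266). The Z138 BTZ arm is 1 library, assumed to vary like the other groups, and the 10 became 0 when either Z138 CON library was left out.

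A limma test of whether the BTZ change differs between the 4 lines called 0 members (13 at an unadjusted p under 0.05, against 5.22% of genes) and 0.0477% of genes; MCM2 had the smallest adjusted p, 0.318. Without the libraries over 50% mitochondrial, 13 members were called, but so were 19.5% of all genes, and JEKO-1 was then represented by replicate 3 alone. Without any JEKO-1 BTZ library, the test over the other 3 lines called 0 members (18 unadjusted, with that share of all genes not given) and 0.127% of genes. MINO-VR under BTZ is 1 library, and the other MINO-VR libraries carrying BTZ had lower medians: -1.26 with CLF (35 genes at least 2-fold lower, 15.6% of all genes), -1.62 with YM155 (41, 17.6%) and -1.60 with S63845 (45, 15.6%). The library with CLF shares the library series of the MINO-VR CON library, whereas those with YM155 and S63845 belong to the other series. For the latter, series and treatment cannot be told apart.

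**Figure D4:**
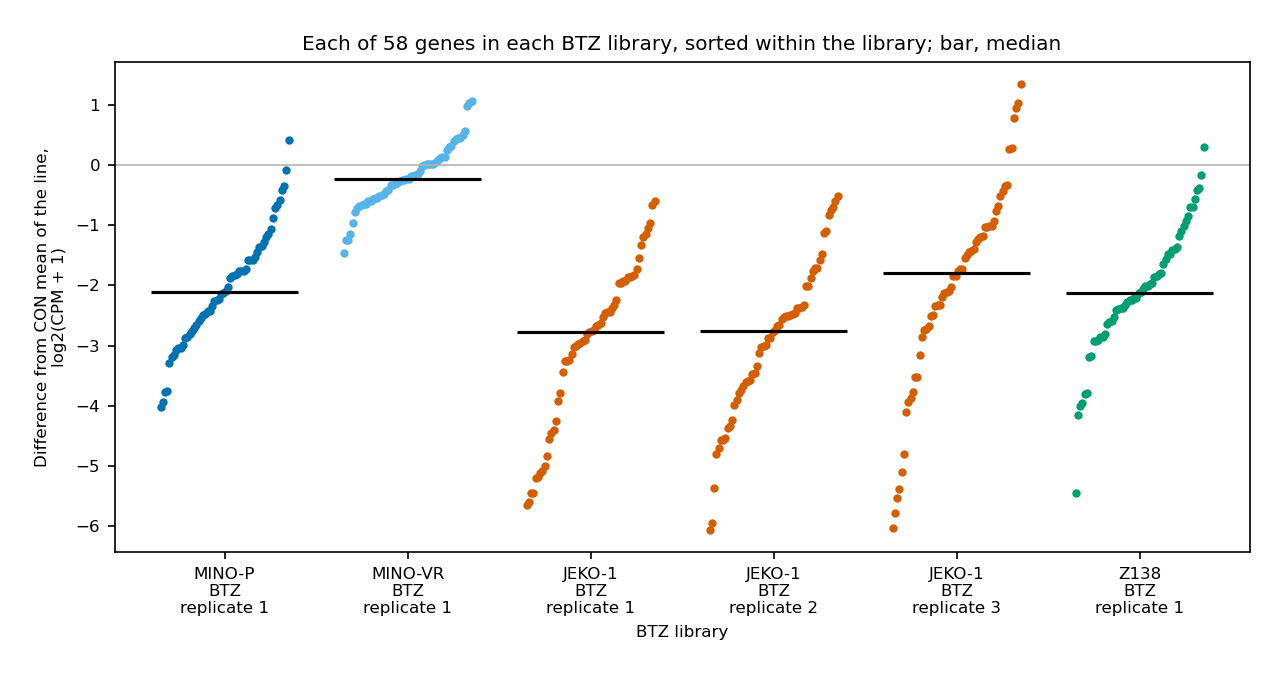
Each point is 1 of the 58 genes in 1 of the 6 BTZ libraries, as its difference from the CON mean of the line on log2(CPM + 1), sorted within the library, with the median as a bar. The MINO-VR library centres on -0.23, the others on -2.77 to -1.80, and JEKO-1 replicate 3 has the widest spread.

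IBR libraries also had less replication gene RNA. Against S63845, the comparison that lies within 1 library series in every line, 46 of the 58 genes were lower and 0 higher, with 5.54% of genes lower. The median change was -1.41 (all genes: -0.04) and the range -3.61 (RRM2) to -0.04 (RPA2). When only JEKO-1 and Z138 were used, no gene at all was called. There, 32 members had an unadjusted p under 0.05 and their median was -1.07, with the share of all genes under that p not given. A test of whether this difference varies between lines called 0 members (4 unadjusted, against 5.5% of genes; 0.119% of genes called), with the smallest adjusted p, 0.195, for GINS4. Mitochondrial shares were 5.58 to 20.9% in IBR and 3.91 to 17.5% in S63845; their part in the result was not tested.

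RRM2 stood at 128 to 337 CPM over the 6 S63845 samples (median 253) and at 4.94 to 77.5 CPM over the 8 IBR samples (median 18.1), with no overlap (-3.61, SE 0.59, adjusted p = 0.000396). TYMS stood at 144 to 396 CPM (median 264) and 15.5 to 114 CPM (median 39.3), also without overlap (-2.49, SE 0.43, adjusted p = 0.000605). UHRF1 ran from 85.1 to 280 CPM under S63845 (median 191) and from 7.75 to 113 CPM under IBR (median 17.4), where only JEKO-1 IBR replicate 3 reached the S63845 range (-3.00, SE 0.61, adjusted p = 0.00224). That sample was likewise the highest of the IBR samples for RRM2 and TYMS.

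All 5 E2F and cyclin E genes were lower in IBR than in S63845 (median -2.21), and this included CCNE1, which had not been called under BTZ. CCNE1 ran from 8.80 to 20.5 CPM under S63845 (median 13.1) and from 0 to 7.12 CPM under IBR (median 2.54), without overlap (-2.21, SE 0.43, adjusted p = 0.00155). E2F1 ran from 61.6 to 217 CPM (median 142) and from 15.5 to 99.0 CPM (median 23.2), with some overlap (-2.0, SE 0.29, adjusted p = 0.000148). E2F8 changed by -2.72 (SE 0.60, adjusted p = 0.00482).

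Fork protection and licensing turnover were lower in 3 of 3 genes. CLSPN stood at 52.2 to 78.8 CPM (median 65.8) under S63845 and 6.56 to 44.0 CPM (median 10.4) under IBR (-2.31, SE 0.56, adjusted p = 0.00857), and DTL at 46.9 to 183 CPM (median 112) and 7.09 to 108 CPM (median 28.0) (-1.90, SE 0.45, adjusted p = 0.00726). Helicase activation had 7 of 8 lower (median -1.81), with CDC45 at 20.1 to 43.1 CPM (median 34.8) against 1.51 to 27.0 CPM (median 9.18) and GINS2 at 25.9 to 132 CPM (median 47.3) against 3.31 to 73.7 CPM (median 13.2). DBF4 was the exception (-0.66, adjusted p = 0.104).

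Licensing genes were lower in 8 of 11 (median -1.38), and MCM4 changed most (-2.21, SE 0.40, adjusted p = 0.000875). CDC6 went from 52.7 to 185 CPM (median 72.8) to at most 84.1 CPM (median 32.9) (-1.38, adjusted p = 0.0127). MCM2 stood at 158 to 319 CPM (median 237) and 42.4 to 347 CPM (median 81.7), the 347 CPM being JEKO-1 replicate 3 (-1.27, adjusted p = 0.00901). CDT1 and GMNN were not called: CDT1 had 48.5 to 224 CPM (median 122) against 14.9 to 186 CPM (median 66.9) with an estimate of -0.59 (adjusted p = 0.415), and GMNN an estimate of -0.78 (adjusted p = 0.0872), from 16.1 to 60.6 CPM against 8.89 to 32.6 CPM.

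The clamp and loader were lower in 6 of 6 genes (median -1.06), PCNA without overlap at 201 to 460 CPM (median 283) against 62.6 to 177 CPM (median 93.8) (-1.60, SE 0.32, adjusted p = 0.00173). Polymerases and primase were lower in 6 of 9 (median -1.14): POLE2 (-1.67, adjusted p = 0.0114) ran from 2.26 to 13.5 CPM and from 0 to 3.18 CPM, and PRIM1 was not called (-0.65, adjusted p = 0.306) at 15.8 to 54.1 CPM against 10.1 to 68.4 CPM. In nucleotide supply 4 of 5 were lower, TK1 by -1.87 (adjusted p = 0.00455) at 45.7 to 144 CPM against 4.30 to 78.5 CPM.

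Chromatin genes were lower in 5 of 6, DNMT1 by -1.52 (adjusted p = 0.00139) at 217 to 384 CPM against 43.6 to 292 CPM. SLBP (-0.49, adjusted p = 0.282) was not called, at 94.1 to 156 CPM against 66.0 to 134 CPM. Lagging strand and single-strand binding genes had the fewest calls, 2 of 5: LIG1 (-1.61) and FEN1 (-1.22) were lower, RPA3 (-0.74, adjusted p = 0.0838) was not called at 29.4 to 52.9 CPM against 11.1 to 34.1 CPM, and RPA2 stood at 60.6 to 85.5 CPM and 59.6 to 90.8 CPM.

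Against CON, with which the BTZ comparison shares its 5 control samples, IBR had 38 members lower and 0 higher (4.95% of genes lower), with a median of -1.39. The 4 largest drops were RRM2 (-3.56, SE 0.69, adjusted p = 0.00167), UHRF1 (-3.30, SE 0.71, adjusted p = 0.00343), E2F8 (-2.85, SE 0.71, adjusted p = 0.00994) and TYMS (-2.76, SE 0.51, adjusted p = 0.000971). CDC6 (-1.01, adjusted p = 0.129) and CDT1 (-0.85, adjusted p = 0.302) were not called. In MINO-P and MINO-VR the CON libraries belong to the other library series, so a difference between series and one between treatments rest there on the series term of the fit. The count was 25 on CPM as deposited, mitochondrial genes included, 19 without JEKO-1 CON replicate 1, 22 without Z138 CON replicate 2 and 0 in JEKO-1 and Z138 only, where 40 members had an unadjusted p under 0.05. Shares of all genes, called or under that unadjusted p, are not given for these alternative fits. A change among members can therefore not be told there from one among all genes. Within lines, IBR gave 0 called members in JEKO-1 (19 unadjusted, against 6.89% of genes; median -1.30; 0.0239% of genes called) and 0 in Z138 (27 unadjusted, against 10.6%; median -1.37; 0.00597% called), and a test of the difference between these lines called 0 members (0 unadjusted, against 3.75% of genes; 0.0119% called). All 11 IBR libraries had member medians below CON of their line, from -2.10 to -1.01, with 29 to 52 of the genes at least 2-fold lower (8.14 to 22.3% of all genes).

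**Figure D5:**
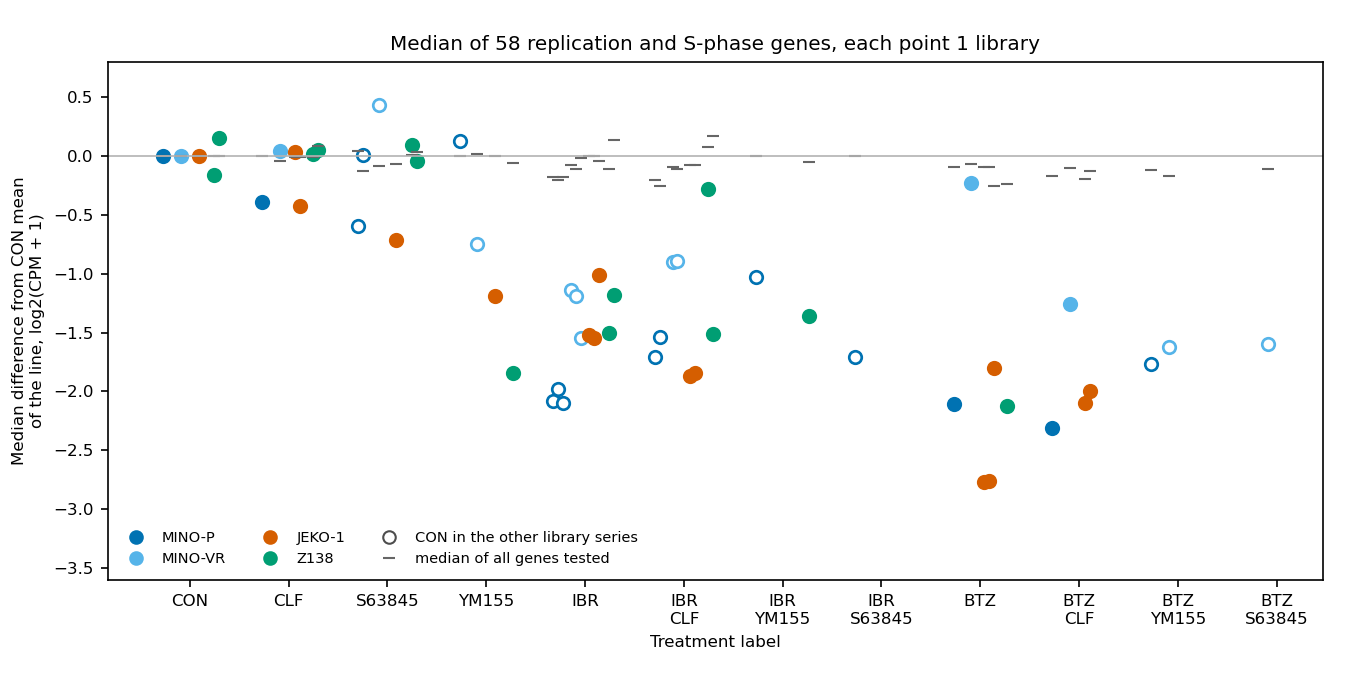
Each point is the median difference of the 58 genes from the CON mean of the same line in 1 library, on log2(CPM + 1), by treatment label and coloured by line; open points are MINO libraries whose CON library is in the other series, and grey dashes are the median of all genes tested. BTZ and IBR points lie at -2.77 to -0.23 and -2.10 to -1.01, CLF and S63845 points at -0.72 to 0.44, and YM155 points span 0.13 to -1.84.

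S63845 and CLF alone gave no called member. S63845 against CON had 0 called members in limma (0 at an unadjusted p under 0.05, against 2.42% of genes; 0% of genes called) with a median of -0.05. The library medians ran from -0.72 in JEKO-1 to 0.44 in MINO-VR, and within lines S63845 gave 0 called members in JEKO-1 (0 unadjusted, against 7.08% of genes; 0.412% called) and 0 in Z138 (0 unadjusted, against 0.77%; 0% called). S63845 libraries of MINO-P and MINO-VR belong to the other library series than their CON libraries. Series and treatment cannot be told apart in their medians. CLF against CON called 0 members (0 unadjusted, against 0.346% of genes; 0% of genes called) with a median of -0.09 and library medians from -0.42 to 0.05. RRM2, for example, stood at 136 CPM in MINO-P, 91.8 in MINO-VR, 500 and 240 in JEKO-1 and 319 and 326 in Z138 under CLF.

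Under YM155 the members' levels spread widely from library to library, with 1 library a line. The medians were 0.13 in MINO-P, -0.75 in MINO-VR, -1.19 in JEKO-1 and -1.84 in Z138, with 0, 19, 35 and 49 genes at least 2-fold lower (6.3, 6.8, 8.49 and 15.7% of all genes). RRM2 stood at 340, 31.4, 47.5 and 11.2 CPM in that order and UHRF1 at 121, 39.2, 67.3 and 5.36 CPM; for both, only the MINO-P value lies above CON of its line. The additive fit called 0 members (23 at an unadjusted p under 0.05, against 14.1% of genes; 0.531% of genes called) with a median of -0.89, and DUT had the smallest adjusted p (-1.15, adjusted p = 0.0633). Without the MINO-P YM155 library, 7 members were called, and the share of all genes called is not given for that fit.

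In Z138 alone, where the YM155 arm is 1 library that is assumed to vary like the other groups, 3 members were lower: MCM6 (-3.89, SE 0.51, adjusted p = 0.0164), CDC45 (-3.33, SE 0.61, adjusted p = 0.0493) and MCM2 (-2.56, SE 0.42, adjusted p = 0.0412), where 0.0716% of genes were lower. MCM6 stood at 14.1 CPM under YM155 and at 214 and 232 CPM in CON, and MCM2 at 52.8 against 288 and 347 CPM. The count was 0 when either Z138 CON library was left out. With a block for the ending of the Z138 library names only MCM6 was called, and CDC45 (adjusted p = 0.104) and MCM2 (adjusted p = 0.0816) were not. CDC6 stood out in this library with 130 CPM against 123 and 118 CPM in CON (0.11, adjusted p = 1). In JEKO-1, 0 members were called (10 unadjusted, against 4.69% of genes; 0.0179% of genes called). Whether the YM155 change differs between lines was not tested, and in the MINO lines the series differs as well.

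Adding CLF to BTZ or to IBR gave no called member. BTZ_CLF against BTZ had a median of -0.02 and 0 called members (0 unadjusted, against 3.62% of genes; 0% of genes called), and IBR_CLF against IBR a median of 0.23 and 0 called members (4 unadjusted, against 4.27%; 0% called). Library medians from CON did not move alike. From BTZ to BTZ_CLF they went from -0.23 to -1.26 in MINO-VR and from -2.11 to -2.31 in MINO-P. In JEKO-1 they were -2.77, -2.76 and -1.80 under BTZ, and -2.1 and -2 under BTZ_CLF. IBR_CLF medians lay above those of IBR in the MINO lines and below them in JEKO-1 (-1.87 and -1.84 against -1.55 to -1.01). JEKO-1 libraries of BTZ_CLF and IBR_CLF are over 50% mitochondrial. Differences between lines were not tested here. BTZ added to YM155 was tested as BTZ_YM155 against YM155, which had a median of -0.84 and 0 called members. Unadjusted, 13 members passed, against 11.2% of genes, and 0.412% of genes were called. RPA1 had the smallest adjusted p (-1.03, adjusted p = 0.106). Without the Z138 YM155 library 3 members were called, and the share of all genes called is not given for that fit.

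The 2 Z138 IBR_CLF libraries went apart. Replicate 1 had a median of -0.28 from CON with 0 genes at least 2-fold lower (1.23% of all genes), and replicate 2 a median of -1.51 with 41 (9.1%). RRM2 stood at 186 and 10.5 CPM in them, TYMS at 245 and 25.6 CPM and E2F8 at 41.2 and 3.64 CPM, while the IBR libraries of Z138 had RRM2 at 17.1 and 19.1 CPM. For RRM2, replicate 1 is near the CON values of 182 and 240 CPM, and replicate 2 near those of IBR. The single MINO-P library of IBR_S63845 had a median of -1.71 (47 genes at least 2-fold lower, 14.1% of all genes), and IBR_YM155 had -1.03 in MINO-P (30, 11.3%) and -1.36 in Z138 (38, 13.5%).

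Between lines, with treatment in the fit, JEKO-1 exceeded MINO-P in 22 members and was lower in 2 (RPA1, -0.43, and CCNE2, -1.28), where 18.7% of genes were higher and 15% lower; the median was 0.69. The GINS complex led: GINS2 (1.98, SE 0.36, adjusted p = 4.07e-05), GINS1 (1.91, SE 0.45, adjusted p = 0.000933) and GINS4 (1.56, SE 0.41, adjusted p = 0.00306), then PRIM1 (1.55, SE 0.36, adjusted p = 0.000765). GINS2 averaged 98.9 ± 67.7 CPM (SD over treatments, n = 11) in JEKO-1, 37.0 ± 20.5 (n = 13) in Z138, 21.6 ± 17.4 (n = 13) in MINO-P and 13.3 ± 11.3 (n = 11) in MINO-VR; in CON it stood at 203 CPM in JEKO-1 and at most 60.1 CPM elsewhere. Helicase activation and licensing had 5 of 8 and 5 of 11 genes higher, polymerases and primase 1 of 9. On CPM as deposited, 11 were higher and 2 lower, and the shares of all genes are not given for that scaling.

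Z138 against JEKO-1 had 16 members lower and 6 higher (27.8% of genes lower, 24.8% higher), a smaller share of calls than among all genes. GINS2 (-1.66, adjusted p = 1.6e-05), CCNE1 (-1.44, adjusted p = 0.000463), ASF1B (-1.09, adjusted p = 0.0067) and FEN1 (-1.05, adjusted p = 0.000176) were the lowest, and CCNE2 (1.57, adjusted p = 0.000481), LIG1 (1.41, adjusted p = 0.000178), ORC1 (1.31, adjusted p = 0.000743) and POLE (0.96, adjusted p = 0.00213) the highest. The E cyclins were thus opposite: in CON, CCNE1 stood at 1.69 and 3.53 CPM in Z138 and 21.2 CPM in JEKO-1, and CCNE2 at 11.1 and 18.7 CPM in Z138 and 5.86 CPM in JEKO-1. Here the scaling matters: on CPM as deposited 9 members were higher and 2 lower, and the members' median moved from -0.28 to 0.08 while that of all genes moved from -0.04 to 0.25. Shares of all genes higher and lower are not given for that scaling. MINO-VR against MINO-P called 0 members (6 unadjusted, against 16.2% of genes; 5.26% of genes called), with a median of -0.21 and the smallest adjusted p for RFC4 (-0.55, adjusted p = 0.152).

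Per kilobase of exon, PCNA was the most abundant member in CON (251 ± 90.7 CPM per kb, SD, n = 5), followed by MCM7 (182 ± 96.2) and TYMS (124 ± 57.1), and CCNE2 the least (2.06 ± 1.39); the SDs span 4 lines, and PCNA and MCM7 do not differ beyond them. The 58 genes together made up 0.162 to 1.25% of nuclear CPM in a library. Across the 48 samples, which share lines and treatments, each gene was correlated with the mean of the other members: MCM10 (Pearson r = 0.95), TYMS and MCM2 (0.95 each) followed it closest. RPA2 (-0.09), SLBP (0.21) and CCNE1 (0.42) followed it least over these pooled samples. Within lines, CCNE1 had r = 0.88 in MINO-P, 0.93 in MINO-VR, 0.405 in JEKO-1 and 0.69 in Z138. In the same order, SLBP had -0.23, -0.16, 0.19 and 0.72, and RPA2 had -0.13, -0.59, 0.61 and 0.42.

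The changes were also set beside the promoter motifs. Under BTZ, 29 of the 34 members with an E2F motif were lower (median -1.97) and 11 of the 16 without one (median -1.94), and TK1, the largest drop, had none in its window. In IBR against S63845 the counts were 28 of 34 (median -1.48) and 12 of 16 (median -1.18).

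Further replication genes and mitosis genes moved in the same comparisons. Of 52 other replication genes, 28 were lower under BTZ against CON (median -1.24), with CCNA2 (-2.42), cyclin A2, and TICRR (-2.36), an origin firing factor, in front. Against S63845, IBR had 22 of them lower and 1 higher (ASF1A, 0.61), with HELLS (-2.78) and DSCC1 (-1.99) lowest. Of 30 mitosis genes, 29 were lower under BTZ (median -2.26; AURKB, the chromosomal passenger kinase, -4.02, and KIF18B, -3.93), and 8 in IBR against S63845 (median -1.19; ESPL1, -1.74, and KIF23, -1.64). In IBR against CON, which shares the CON samples, 20 of the 52 (median -0.91; HELLS, -2.33, and CCNA2, -2.06) and 10 of the 30 (median -1.32; KIF20A, -1.99, and TOP2A, -1.97) were lower. YM155 against CON called 0 of either list (12 and 13 unadjusted).

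Some member values are less certain than others. Exons of 16 members overlap those of another gene in the table, such as TYMS with TYMSOS and ENOSF1, MCM7 with AP4M1 and PRIM1 with NACA, and use of strand in counting is not given in the sources used here. Another limit is shared sequence: 10 members have pseudogenes named after them, among them DUT with 8 and PCNA, RRM2 and RPA2 with 3 each.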

How the data were processed

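The deposited table gives log2(CPM + 1) per gene for 56 libraries of polyadenylated RNA (TruSeq, per the labels' protocols); Partek and hg38 are named in the submitters' processing notes, and how the authors aligned and counted is not given in the sources used here. All 56 value columns were matched to samples. CPM was recovered from these log2 values, the entry without a gene name (at most 0.000773% of a library) and 15 mitochondrial genes were left out, and each library was rescaled to the same total. Values were whole multiples of 1 read, within 0.1 read, for 71.9 to 88.6% of values (median 84.2%), which gave the depth; 3 reads, the floor for counting error, equal 0.139 to 0.543 CPM. In 8 pairs, whose names differ only by a final lower-case a, the SD of the log2 difference over 2288 genes was 0.123 to 0.391, against 0.544 to 2.12 in 15 other pairs; each of the 8 pairs was averaged. In Z138, 5 pairs whose names differ by a final capital A had an SD of 0.544 to 0.977 and were kept as separate samples. Their differences were correlated between all 10 pairs of the 5 groups (Pearson r over 2319 genes, 0.227 to 0.781), so libraries with the same ending were taken as paired and a fit with this ending as a block was added; the labels do not say what the endings mean.

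Changes were tested with limma 3.58.1 (R 4.3.3) with trend on log2(CPM + 1), over 16755 genes with at least 1 CPM in at least 2 samples, and p-values were adjusted by Benjamini-Hochberg over all of them; called means an adjusted p under 0.05. Treatments and lines were fitted with terms for treatment, line and library series, and within-line comparisons with 1 mean for each of 37 groups (11 residual degrees of freedom); 25 comparisons were made. The scripts were tested on simulated data. The members and lists were chosen with earlier results of these data known. Described library by library were 20 members, together with up to 4 called members with the largest drop and 4 with the largest rise in a comparison; the rest are given by role. For each other list the counts, the median and the 2 largest changes are given. Alternatives covered scaling, pseudocount, filter, averaging, the series term, lines and left-out libraries. Protein sequences were not used here. Summaries used Python 3.11.15.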

Additional observations from a re-analysis of the deposited data

How the results depend on the processing

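Several counts of called members moved with the processing. The cause was not tested. The share of all genes called is not given beside the counts below. A rise or fall among members can therefore not be told here from one among all genes. On CPM as deposited, 25 members were called for IBR against CON, 13 for JEKO-1 against MINO-P, 11 for Z138 against JEKO-1 and 38 for BTZ in JEKO-1. With JEKO-1 and Z138 only, IBR gave 0 against CON and 0 against S63845. For YM155 against CON, 1 was called with size factors, 2 with at least 1 CPM in every sample and 2 with 56 separate libraries. With separate libraries, the near-identical libraries of the 8 averaged pairs enter the spread as if they were replicates. Counts from that alternative are therefore not those of independent samples. Separate libraries also gave 6, 38 and 24 for BTZ in MINO-P, JEKO-1 and Z138, 2 and 8 for IBR in JEKO-1 and Z138, 14 for YM155 in Z138 and 1 for the BTZ difference between lines. With no filter the counts were 2, 14, 7 and 1 for BTZ in MINO-P, BTZ in JEKO-1, YM155 in Z138 and the IBR to S63845 difference between lines. Size factors gave 5 for BTZ in Z138, and a pseudocount of 0.1 gave 1 for YM155 in Z138.

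3 alternatives were chosen after seeing the data. Without the libraries over 50% mitochondrial, the counts were 7, 28 and 32 for BTZ in MINO-P, JEKO-1 and Z138, 3 for IBR and 16 for YM155 in Z138, 13 for the BTZ difference between lines and 1 for the IBR to S63845 difference between lines. For the BTZ difference between lines, the share of all genes called rose along with the member count, as described above. Without the JEKO-1 BTZ libraries, BTZ against CON had 40. With the replicate block in Z138, YM155 in Z138 gave 1; over all comparisons 9 member calls were gained and 3 lost, and no other count moved by over 1.5 times.

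Leaving out 1 sample at a time gave 39 to 50 for BTZ against CON, 19 to 43 for IBR against CON, 36 to 46 for IBR against S63845, 0 to 7 for YM155 against CON, 0 to 3 for BTZ_YM155 against YM155, 20 to 31 for JEKO-1 against MINO-P, 18 to 25 for Z138 against JEKO-1, 27 to 39 for BTZ in JEKO-1, 0 to 0 for BTZ and for YM155 in Z138, and 0 to 12 for the BTZ difference between lines. For 37 named members, 774 of 830 alternative values kept their direction and call, 56 lost the call and 0 reversed; RPA1 in JEKO-1 against MINO-P lost it in 14 of 33. Depth limits genes of a few CPM, such as POLE2, CCNE1 and E2F8, for which 3 reads equal up to 0.543 CPM.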
